A study of Mus musculus with 22 samples.

Results

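The genes described here are those of glycolysis and of pyruvate use, measured in donor T cells of mice after haematopoietic cell transplantation. A list of 39 genes was taken, from the glucose transporters through the glycolytic enzymes to lactate export and pyruvate dehydrogenase, and a gene was kept if its level in CPM (counts scaled to a common library size) reached 1 in at least 5 libraries. This held for 38 of the 39 listed genes, out of 24091 gene names in the table. The neuronal enolase Eno2 was the gene left out. Wild-type C57BL/6 donors gave splenocytes and marrow cells, which were injected intravenously into wild-type BALB/C hosts after lethal irradiation. The hosts received control IgG or an IL-2-neutralising monoclonal antibody (anti-IL-2) on alternate days. On day 7 FACS was used to purify CD4 or CD8 donor T cells from the spleen or the colon (called gut here). RNA was measured in 22 libraries that form 8 groups of cell type, tissue and treatment, all with wild-type donors and wild-type, irradiated recipients. Batches named 181201, 181212 and 190306 each supplied 1 library to every group, 3 in all, except that gut IgG groups had 2, with none in batch 181201. The labels do not say whether a library is 1 animal or several, so p-values measure the spread between libraries, which may be technical.

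Glycolysis turns glucose into pyruvate in the cytosol. Pyruvate is then either reduced to lactate and exported, or carried into mitochondria, where the pyruvate dehydrogenase complex makes acetyl-CoA for the tricarboxylic acid cycle. Activated T cells are known for raising glucose uptake and lactate release as they divide, and IL-2, a T cell growth factor that signals through STAT5 and through the PI3K and mTOR pathway, is known to sustain that programme, in which the transcription factors HIF-1alpha and Myc induce many of the genes described here. The question of the series is what IL-2 neutralisation changes in donor T cells of the 2 tissues.

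Total counts ran from 14628806 to 24518362 per library. The sorted cell type fitted its markers, since Cd4 was at 1802 to 2609.9 CPM in CD4 libraries and 0.321 to 7.21 CPM in CD8 libraries, and Cd8a was at 912 to 2130.1 CPM in CD8 libraries and 0.115 to 3.60 CPM in CD4 libraries. The summed level of 6 gut epithelium markers was 17.8 to 112 CPM in gut libraries and 5.58 to 10.7 CPM in spleen libraries. For the 5 CD8 IgG libraries a further label names the other tissue, and the tissue of the source name, which fits those epithelial sums, was used here. In batch 190306 the labelled treatments went against those of the other batches. Il2ra, the IL-2 receptor alpha chain that IL-2 itself induces, was at 238 and 254 CPM in the CD4 spleen IgG libraries of batches 181201 and 181212 and at 60.2 and 61.0 CPM in the anti-IL-2 libraries, but in batch 190306 it was at 65.9 CPM in the library labelled IgG and 224 CPM in the library labelled anti-IL-2. No label was changed. Treatment is therefore described in batches 181201 and 181212, with batch 190306 beside it, and every direction that includes batch 190306 rests on its labels.

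Several enzymes of lower glycolysis share most of their sequence with other genes, which bears on how far their counts can be read. In the GENCODE M21 annotation, 90.4% of the 50-base windows of the mRNA of Gapdh, which encodes glyceraldehyde-3-phosphate dehydrogenase, also occur in transcripts of 222 other genes, of which 213 are pseudogenes. The share was 72.2% for Eno1 (enolase), 68% for Pgk1 (phosphoglycerate kinase) and 41.5% for Pgam1 (phosphoglycerate mutase). The opening 150 coding bases of 2 of these mRNAs are printed because they hold more bases private to the gene than any other coding stretch of that length. Capitals mark bases in at least 1 window of 50 that was found in no other gene, and lower case marks bases found elsewhere as well. The stretches are bases 15 to 164 of the Gapdh mRNA and 152 to 301 of the Pgk1 mRNA, from the transcript with the longest coding sequence. Of the whole coding sequence, 10.2% was private to Gapdh in this sense and 7.43% to Pgk1.
Gapdh: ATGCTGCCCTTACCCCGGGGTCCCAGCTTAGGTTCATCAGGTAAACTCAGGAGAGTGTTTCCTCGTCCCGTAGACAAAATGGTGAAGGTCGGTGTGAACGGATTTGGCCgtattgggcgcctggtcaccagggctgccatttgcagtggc
Pgk1: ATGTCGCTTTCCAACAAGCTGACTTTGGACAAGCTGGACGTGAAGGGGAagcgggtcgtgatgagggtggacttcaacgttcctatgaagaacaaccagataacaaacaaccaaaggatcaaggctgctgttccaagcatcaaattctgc

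The low counts of these genes go with that shared sequence. Gapdh, which is among the most abundant mRNAs in most cells, was at only 2.93 to 14.9 CPM, Pgk1 at 7.43 to 14.2 CPM, Eno1 at 3.12 to 7.93 CPM and Pgam1 at 3.75 to 6.11 CPM, while the neighbouring enzymes Aldoa, Pkm and Ldha, of which 13.5%, 30.5% and 16.6% of windows were shared, stood at 280.0 to 637, 434 to 733 and 387 to 805 CPM. How reads with several matches were treated, and the read length, are not given in the sources used here, and the part of shared sequence in these levels was not tested. Counts of Gapdh, Eno1, Pgk1 and Pgam1 are therefore uncertain, both as levels and as differences. Of the other genes, Pdhb (30.3%), Ldhb (27%), Mpc1 (23.2%), Gpi1 (19.6%) and Tpi1 (7.51%) also shared windows, and the remaining 26 shared at most 0.464%. Exons of Mpc1, Pdha1, Pkm, Pgm1, Gpi1 and Pfkm overlap those of another annotated gene over more than 10% of their length, and whether the counting used strand is not given. RefSeq lists Pgm2 as a former symbol of Pgm1 and Pgm1 as a former symbol of Pgm2, and the annotation behind the counts is not given, so which of these phosphoglucomutases each name stands for here cannot be told.

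**Figure D1:**
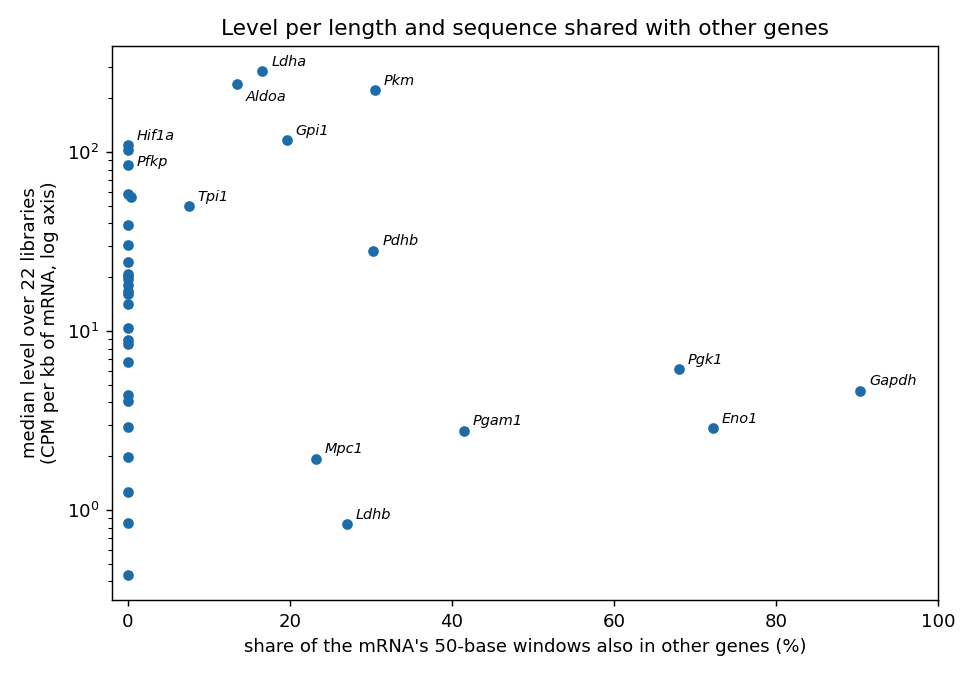
Median level over 22 libraries (vertical log axis, CPM per kb of mRNA) of each of the 38 genes against the share of its 50-base windows found in other genes (horizontal axis, percent). Gapdh, Eno1, Pgk1 and Pgam1, the genes with shares of 41.5% or more, all lie below 10 CPM per kb, while Ldha, Aldoa and Pkm lie above 200.

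The promoters of 4 genes whose levels are described below are printed next, since HIF-1 binds the core letters ACGTG and Myc the E-box CACGTG, which contains them. Each sequence is 300 bases of RefSeq's GRCm38.p6, running from upstream of the start of transcription to 50 bases after it, read on the strand of the gene. Capitals mark ACGTG on either strand. Hk2 (hexokinase 2) lies at chr6:82774405-82774704, minus strand, Hif1a (the alpha subunit of HIF-1) at chr12:73907617-73907916, plus strand, Ldha (lactate dehydrogenase A) at chr7:46845554-46845853, plus strand, and Slc16a3 (the lactate exporter MCT4) at chr11:120948817-120949116, plus strand.
Hk2: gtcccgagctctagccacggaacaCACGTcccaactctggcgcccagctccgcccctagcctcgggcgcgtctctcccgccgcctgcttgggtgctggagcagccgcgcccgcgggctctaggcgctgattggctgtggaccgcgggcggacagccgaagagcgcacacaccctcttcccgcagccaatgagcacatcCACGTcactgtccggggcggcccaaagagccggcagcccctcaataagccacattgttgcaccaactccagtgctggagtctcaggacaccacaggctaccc
Hif1a: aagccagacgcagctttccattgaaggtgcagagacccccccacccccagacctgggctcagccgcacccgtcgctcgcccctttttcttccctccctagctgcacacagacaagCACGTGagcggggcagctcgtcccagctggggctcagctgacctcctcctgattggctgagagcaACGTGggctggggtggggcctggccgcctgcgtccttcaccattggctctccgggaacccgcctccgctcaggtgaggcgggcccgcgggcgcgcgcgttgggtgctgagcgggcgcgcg
Ldha: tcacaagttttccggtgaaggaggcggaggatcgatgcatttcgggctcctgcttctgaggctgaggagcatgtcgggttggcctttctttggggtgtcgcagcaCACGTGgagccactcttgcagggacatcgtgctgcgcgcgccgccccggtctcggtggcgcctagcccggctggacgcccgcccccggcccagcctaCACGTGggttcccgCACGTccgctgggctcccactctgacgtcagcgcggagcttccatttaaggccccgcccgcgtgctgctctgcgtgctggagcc
Slc16a3: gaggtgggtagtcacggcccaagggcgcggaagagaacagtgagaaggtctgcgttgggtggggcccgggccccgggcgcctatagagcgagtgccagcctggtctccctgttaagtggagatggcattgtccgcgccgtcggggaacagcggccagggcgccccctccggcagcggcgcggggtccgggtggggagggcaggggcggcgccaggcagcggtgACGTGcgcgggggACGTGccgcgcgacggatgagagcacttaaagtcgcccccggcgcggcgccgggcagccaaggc

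The window of Ldha held 5 matches to ACGTG, counting both strands of a palindrome, and that of Hk2 held 2. A promoter was listed for 36 of the 38 genes, with Slc2a3 and Pdp1 not among them, and where several were listed the one nearest the annotated start was used. ACGTG stood in 18 of the 36 windows (50%), compared with 19.6% of all 32851 promoters, and CACGTG in 5 (13.9%), compared with 7.15% of all. The share of all promoters counts every listed promoter of every gene, whether or not the gene was expressed here, so the sets compared are not alike. TTCNNNGAA, the letters that STAT5 is known to bind, stood in 0 of the 36 and in 8.3% of all promoters. The window of Pdk1 held no match to any of the 3. These are matches of letters in a short window and not measured binding.

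Per kb of mRNA, the highest median levels over the 22 libraries were those of Ldha (284 CPM per kb), Aldoa (240), which encodes aldolase A, and Pkm (223), which encodes pyruvate kinase M. They were followed by the isomerase Gpi1 (116), Hif1a (110) and the platelet-type phosphofructokinase Pfkp (103). Hk1 (85.2) stood far above the other hexokinases Hk2 (8.90) and Hk3 (0.434), Pfkp above Pfkl (16.8) and Pfkm (4.40), Ldha above Ldhb (0.834), and the glucose transporter Slc2a3 (58.5) above Slc2a1 (20.8). The neighbours Gpi1, Hif1a and Pfkp overlapped in their ranges over libraries. The steadiest genes were the pyruvate dehydrogenase subunits Pdha1 and Dlat, whose highest library was 1.18 and 1.24 times the lowest. The widest range was that of Ldhb, at 18.9 times, and of Hk3, at 11.4 times, and both were counted at low levels.

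**Figure D2:**
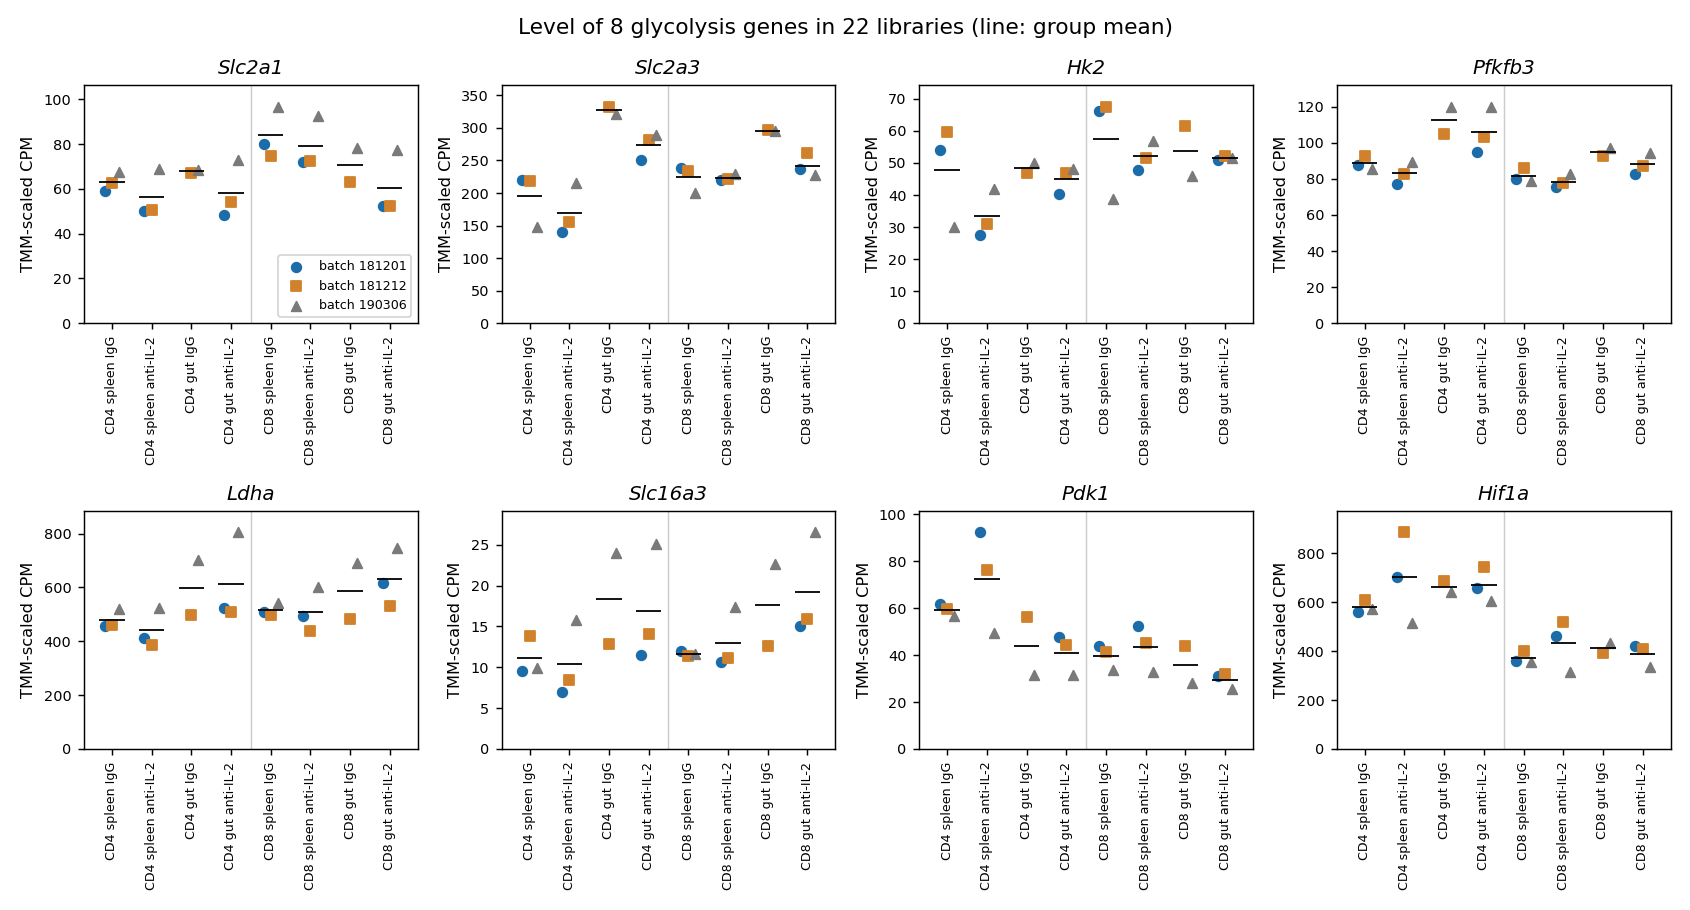
TMM-scaled CPM of 8 genes in each of the 22 libraries, grouped by cell type, tissue and labelled treatment, with the batch shown by symbol and colour and the group mean by a line. In CD4 spleen the Hk2 and Slc2a3 points of batches 181201 and 181212 are lower under anti-IL-2, whereas those of batch 190306 are higher.

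In CD4 T cells of the spleen, anti-IL-2 libraries of batches 181201 and 181212 had less Hk2 and Slc2a3, the inducible hexokinase and the high-affinity glucose transporter GLUT3, and more Hif1a and Pdk1, the kinase that inhibits pyruvate dehydrogenase. Of the 38 genes, 13 passed the test, 6 higher and 7 lower. Among the 13073 genes tested, 9.8% were called higher and 10.3% lower, compared with 15.8% and 18.4% of these genes. The median over the 38 genes was -0.06 on the log2 scale and 0.00 over all genes. Enzymes of the trunk of the pathway at high level, Gpi1, Aldoa, Pkm and Ldha, did not pass (-0.10, 0.00, -0.07 and -0.19 on the log2 scale). Nor did Pfkfb3, which makes the activator of phosphofructokinase (-0.17 ± 0.06, adjusted p = 0.0641).

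For glucose entry and trapping, in the order of batches 181201 and 181212, Hk2 was at 54.0 and 59.7 CPM in CD4 spleen IgG libraries and at 27.6 and 30.9 CPM in anti-IL-2 libraries (log2 fold change ± standard error -0.95 ± 0.08, adjusted p = 2.43e-06, edgeR quasi-likelihood test, as for all values in this form below). Slc2a3 was at 220.1 and 218 CPM under IgG and 139 and 155 CPM under anti-IL-2 (-0.56 ± 0.06, adjusted p = 4.07e-05). Neither gene had overlapping groups. Here and below, a lack of overlap adds no support for a called gene, since these genes were chosen by being called. Slc2a1, the transporter GLUT1, was at 58.9 and 62.6 CPM under IgG and 50.2 and 50.3 CPM under anti-IL-2 (-0.26 ± 0.07, adjusted p = 0.0253). Both anti-IL-2 libraries lay below both IgG libraries for it, but the call was lost whichever of the 4 libraries was left out, with an adjusted p of 0.054 to 0.147. Pfkp, the most abundant phosphofructokinase here, fell by a smaller amount (-0.22 ± 0.05, adjusted p = 0.0113), whereas Pfkm, the muscle form, was higher (0.39 ± 0.11, adjusted p = 0.0253).

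For the fate of pyruvate, Pdk1 was at 61.9 and 59.6 CPM in CD4 spleen IgG libraries and 92.3 and 76.1 CPM in anti-IL-2 libraries (0.48 ± 0.08, adjusted p = 0.000814). The opposing phosphatase Pdp1, which reactivates the complex, fell from 15.8 and 14.5 to 11.3 and 9.39 CPM (-0.54 ± 0.17, adjusted p = 0.036). The groups did not overlap for either gene. The mRNA of the lactate transporters also differed: Slc16a1 (MCT1) was at 82.8 and 79.2 CPM under IgG and 53.2 and 65.8 CPM under anti-IL-2 (-0.44 ± 0.09, adjusted p = 0.004), and Slc16a3 was at 9.59 and 13.8 CPM under IgG and 7.02 and 8.47 CPM under anti-IL-2 (-0.58 ± 0.15, adjusted p = 0.0165). Ldhb, the lactate dehydrogenase subunit that favours pyruvate formation, was at 1.87 and 1.67 CPM under IgG and 5.04 and 4.67 CPM under anti-IL-2 (1.46 ± 0.27, adjusted p = 0.00181). The subunits Pdha1, Pdhb, Dlat and Dld did not pass, with log2 fold changes of -0.05, -0.02, -0.01 and -0.05.

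Hif1a was at 558 and 609.6 CPM in CD4 spleen IgG libraries and 704 and 885 CPM in anti-IL-2 libraries (0.45 ± 0.07, adjusted p = 0.000545), and aldolase C, Aldoc, was higher as well, from 2.51 and 2.37 to 4.17 and 4.97 CPM (0.91 ± 0.22, adjusted p = 0.0089). Hk3, a hexokinase of myeloid cells, rose from 1.52 and 0.865 to 6.67 and 1.35 CPM (1.66 ± 0.47, adjusted p = 0.0261), mostly through 1 library. The summed level of 10 macrophage markers was 308 CPM in that anti-IL-2 library of batch 181201, compared with 60.1 CPM in its IgG partner, and 50.8 against 24.2 CPM in batch 181212. Without it the Hk3 difference was 0.46 (adjusted p = 0.628), and 6 genes were called in CD4 spleen in place of 13. Leaving out the IgG library of batch 181201 gave 8 calls, the IgG library of batch 181212 gave 7 and the anti-IL-2 library of batch 181212 gave 8. Hk2, Slc2a3, Pdk1, Ldhb and Hif1a passed in all 4 of these fits, whereas Pfkp, Slc16a1 and Aldoc passed in 2 of the 4, Hk3 and Slc16a3 in 1 and Slc2a1, Pfkm and Pdp1 in 0. Over 8 alternative fits Slc16a3 lost its call in 4, with values from -0.77 to -0.36 and an adjusted p up to 0.205. The part of macrophage RNA in Hk3 was not tested. In bulk samples such as these, fewer cells of a type and less RNA per cell cannot be told apart.

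Beside these differences, genes of cell division moved as well. In CD4 spleen 11 of 12 proliferation genes fell under anti-IL-2 in the same fit, where 10.3% of all genes did, and their mean log2 CPM was 6.44 and 6.59 under IgG compared with 5.82 and 6.01 under anti-IL-2. Mki67, a marker of dividing cells, was among them (-0.84 ± 0.07, adjusted p = 4.23e-06). In batch 190306 the mean was 6.28 in the library labelled IgG and 6.72 in that labelled anti-IL-2. In CD8 spleen 10 of 12 fell, where 6.08% of all genes did. Their part in the glycolysis genes was not tested.

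In CD8 T cells of the spleen fewer of these genes passed, 1 higher and 5 lower, which is 2.63% and 13.2% of the 38. Over all genes tested 6.06% were higher and 6.08% lower. Hk2 was at 66.2 and 67.6 CPM under IgG and 47.9 and 51.7 CPM under anti-IL-2 (-0.44 ± 0.07, adjusted p = 0.00156), and Hif1a was at 359 and 399.7 CPM under IgG and 461 and 520.2 CPM under anti-IL-2 (0.36 ± 0.07, adjusted p = 0.005). The groups did not overlap for either. Pfkp (-0.22 ± 0.05, adjusted p = 0.0179), Pdp1 (-0.56 ± 0.17, adjusted p = 0.0412), Eno1 (-0.73 ± 0.20, adjusted p = 0.028) and Pgk1 (-0.47 ± 0.14, adjusted p = 0.0485) were lower, the last pair being genes whose counts are uncertain. Hk2, Pfkp and Pdp1 fell and Hif1a rose in both cell types, which makes 4 of the 13 genes called in CD4 and 4 of the 6 called in CD8 spleen. Calls shared between cell types were not counted over all genes. Leaving out any 1 of the 4 CD8 spleen libraries left 2 or 3 calls, with 2 without either the IgG library of batch 181201 or the anti-IL-2 library of batch 181212, and 3 without either of the others. Hk2 passed in all 4 of these fits, Hif1a in 3, Pdp1, Eno1 and Pgk1 in 1 each, and Pfkp in 0. Slc2a1, Slc2a3, Pfkfb3, Ldha, Slc16a3 and Pdk1 did not pass, with log2 fold changes of -0.11, -0.11, -0.12, -0.13, -0.11 and 0.19.

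The treatment difference itself was larger in CD4 than in CD8 spleen cells for 2 of the 38 genes. Slc2a3 differed by -0.46 ± 0.09 (CD4 less CD8, adjusted p = 0.0317) and Hk2 by -0.51 ± 0.11 (adjusted p = 0.0371), where 0.918% of all genes were called. Leaving out each of the 8 spleen libraries of these batches in turn, the Slc2a3 call held in 1 fit, without the CD4 IgG library of batch 181212, and the Hk2 call in 0.

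In the gut the fit of batches 181201 and 181212 rests on 1 IgG library per cell type, from batch 181212, whose spread is assumed to equal that of the remaining groups. In CD4 gut cells 0 genes were higher and 5 lower (0% and 13.2% of the 38, with 6.04% and 5.68% of all genes tested). The glucose transporter Slc2a1 was at 67.2 CPM in the IgG library and 48.2 and 54.0 CPM in the anti-IL-2 libraries (-0.37 ± 0.09, adjusted p = 0.0206), and Slc2a3 was at 333 CPM under IgG and 251 and 282 CPM under anti-IL-2 (-0.28 ± 0.08, adjusted p = 0.0386). Gpi1, which converts glucose 6-phosphate to fructose 6-phosphate, was at 390.1 CPM under IgG and 327 and 314 CPM under anti-IL-2 (-0.30 ± 0.06, adjusted p = 0.00848). Pdk1 was lower (56.4 CPM under IgG, 47.6 and 44.3 CPM under anti-IL-2, -0.35 ± 0.10, adjusted p = 0.044), as was Bpgm, which makes 2,3-bisphosphoglycerate (-0.52 ± 0.13, adjusted p = 0.02). For each of these genes the IgG library was the highest of the 3, which adds no support, since they were chosen by being called lower. Without the anti-IL-2 library of batch 181201 only Gpi1 kept its call, and without that of batch 181212 only Slc2a1 and Bpgm did. Hk2, Pfkfb3, Ldha, Slc16a3 and Hif1a did not pass in CD4 gut, with log2 fold changes of -0.04, -0.03, 0.02, 0.10 and 0.12.

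In CD8 gut cells 0 genes were higher and 2 lower (5.26% of the 38), where 5.51% of all genes were higher and 5.22% lower. Pdk1 was at 43.7 CPM under IgG and 31.3 and 32.04 CPM under anti-IL-2 (-0.53 ± 0.11, adjusted p = 0.00675), and Pfkp was at 593 CPM under IgG and 512 and 500.0 CPM under anti-IL-2 (-0.23 ± 0.07, adjusted p = 0.0433). Hk2 was at 61.5 CPM under IgG and 50.8 and 52.1 CPM under anti-IL-2 and did not pass (-0.20 ± 0.09, adjusted p = 0.179). Pdk1 kept its call without either anti-IL-2 library, and Pfkp did not. Slc2a1, Slc2a3, Pfkfb3, Ldha, Slc16a3 and Hif1a did not pass either, with log2 fold changes of -0.26, -0.22, -0.09, 0.20, 0.39 and 0.17.

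The gut libraries compared here also differed in markers of other cells. In CD4 gut the summed level of 4 fat markers was 0.943 CPM in the IgG library and 7.53 and 29.1 CPM in the anti-IL-2 libraries, that of 4 pancreas markers 0.333 CPM and 4.61 and 12.7 CPM, and that of 3 fibroblast markers 0.61 CPM and 5.16 and 7.23 CPM. In CD8 gut the fat sum was 2.78 CPM under IgG and 21.2 and 35.3 CPM under anti-IL-2, the pancreas sum 0.321 CPM and 18.7 and 8.55 CPM, and the fibroblast sum 0.428 CPM and 12.7 and 12.9 CPM. All 3 sums were thus higher in both anti-IL-2 libraries of each cell type, and their part in the gut treatment differences was not tested.

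In CD4 cells Pdk1 thus rose in spleen and fell in gut under anti-IL-2, and the difference between tissues passed its own test. The gut less spleen difference was -0.83 ± 0.13 (adjusted p = 0.00259) in CD4 cells, and in CD8 cells -0.72 ± 0.13 (adjusted p = 0.0159), although in CD8 spleen Pdk1 alone did not pass (0.19 ± 0.08). Hk2 fell in CD4 spleen and stood at 46.7 CPM under IgG and 40.3 and 46.8 CPM under anti-IL-2 in CD4 gut, with a gut less spleen difference of 0.91 ± 0.12 (adjusted p = 0.000871). Bpgm also differed in CD4 cells (-0.68 ± 0.17, adjusted p = 0.0307), and Pgk1 in CD8 cells (0.96 ± 0.23, adjusted p = 0.0486). These are 3 of the 38 genes in CD4 and 2 in CD8 cells, with 5.39% and 2.39% of all genes called. Hk2 and Pdk1 passed in CD4 cells whichever library was left out. Bpgm did not without either spleen library of batch 181201 or either gut anti-IL-2 library (adjusted p of 0.0574 to 0.168). In CD8 cells both calls were lost without the spleen anti-IL-2 library of batch 181201, where Pdk1 had an adjusted p of 0.108, and Pgk1 passed only without the spleen IgG library of batch 181212. Bpgm is abundant in red cells, and the summed level of 7 erythroid markers was 42.7 CPM in 1 CD4 spleen anti-IL-2 library, at most 3.16 CPM in the CD4 spleen IgG libraries and at most 1.02 CPM in CD4 gut libraries. The part of red cell RNA in Bpgm was not tested. Of the proliferation genes, 4 of 12 in CD4 gut and 6 of 12 in CD8 gut were higher under anti-IL-2 and 0 were lower, where 6.04% and 5.51% of all genes were higher.

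With all 3 batches together the labelled treatments gave no call. In each of the 4 populations 0 of the 38 genes and 0% of the 12841 genes tested passed (edgeR quasi-likelihood test). At an unadjusted p under 0.05 there were 1, 0, 0 and 2 of the 38 genes in CD4 spleen, CD8 spleen, CD4 gut and CD8 gut, and 282, 148, 750 and 953 of all genes. The 3 were Aldoc in CD4 spleen, and Gapdh and Pdk1 in CD8 gut.

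Within batch 190306 the labelled differences ran the other way for many of the genes. In CD4 spleen Hk2 was at 29.9 CPM in the library labelled IgG and 41.9 CPM in that labelled anti-IL-2, Slc2a3 at 147 and 215 CPM, and Slc16a3 at 9.89 and 15.8 CPM. Hif1a was at 572 and 515 CPM, and Pdk1 at 56.5 and 49.3 CPM. Each of these 5 differences has the opposite sign to that of the other batches. They are examples, and Slc16a3 and Pdk1 were not called in the fit of this contrast given next. Of the 38 genes, 26 were higher in the CD4 spleen library labelled anti-IL-2 here, and 14 and 15 in batches 181201 and 181212. Over all genes the shares were 53%, 47.4% and 48.9%. The spleen libraries of batch 190306 also differed in markers of other cells. The summed level of 7 neutrophil markers was 1.01 CPM in the CD4 spleen library labelled IgG and 78.2 CPM in that labelled anti-IL-2 (1.02 and 49.7 CPM in CD8 spleen), and that of the 10 macrophage markers was 224 and 40.3 CPM (113 and 68.7 CPM in CD8 spleen). The part of neutrophil and macrophage RNA in these differences was not tested.

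A fit with a separate treatment term for batch 190306, whose groups hold 1 library each, tested that contrast. In CD4 spleen 7 of the 38 genes differed between batch 190306 and the others (24.2% of all genes), in CD8 spleen 5 (18.6%), in CD4 gut 9 (21.4%) and in CD8 gut 3 (16.7%). So in each population the share among glycolysis genes, from 7.89% to 23.7%, was near or below that over all genes. Ldhb and Pfkp differed in all 4 populations: Ldhb by -2.21 ± 0.43, -2.61 ± 0.59, -3.05 ± 0.49 and -2.71 ± 0.59, in that order, and Pfkp by 0.33, 0.25, 0.33 and 0.45. The Pfkp call was lost in 5 of 7 alternative fits in CD8 spleen and 1 of 7 in CD4 spleen. It was lost in 1 of 5 in CD4 gut and 0 of 5 in CD8 gut. Hk2 differed in CD4 spleen by 1.07 ± 0.27 (adjusted p = 0.0129), Slc2a3 by 0.78 ± 0.16 (adjusted p = 0.00342) and Hif1a by -0.63 ± 0.12 (adjusted p = 0.00159). Without the CD4 spleen anti-IL-2 library of batch 181201, 4 of the 7 remained called, without the CD4 gut anti-IL-2 library of that batch 4 of the 9, and without that of batch 181212 5 of the 9. Without the CD8 spleen anti-IL-2 library of batch 181201, 3 of the 5 remained.

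**Figure D3:**
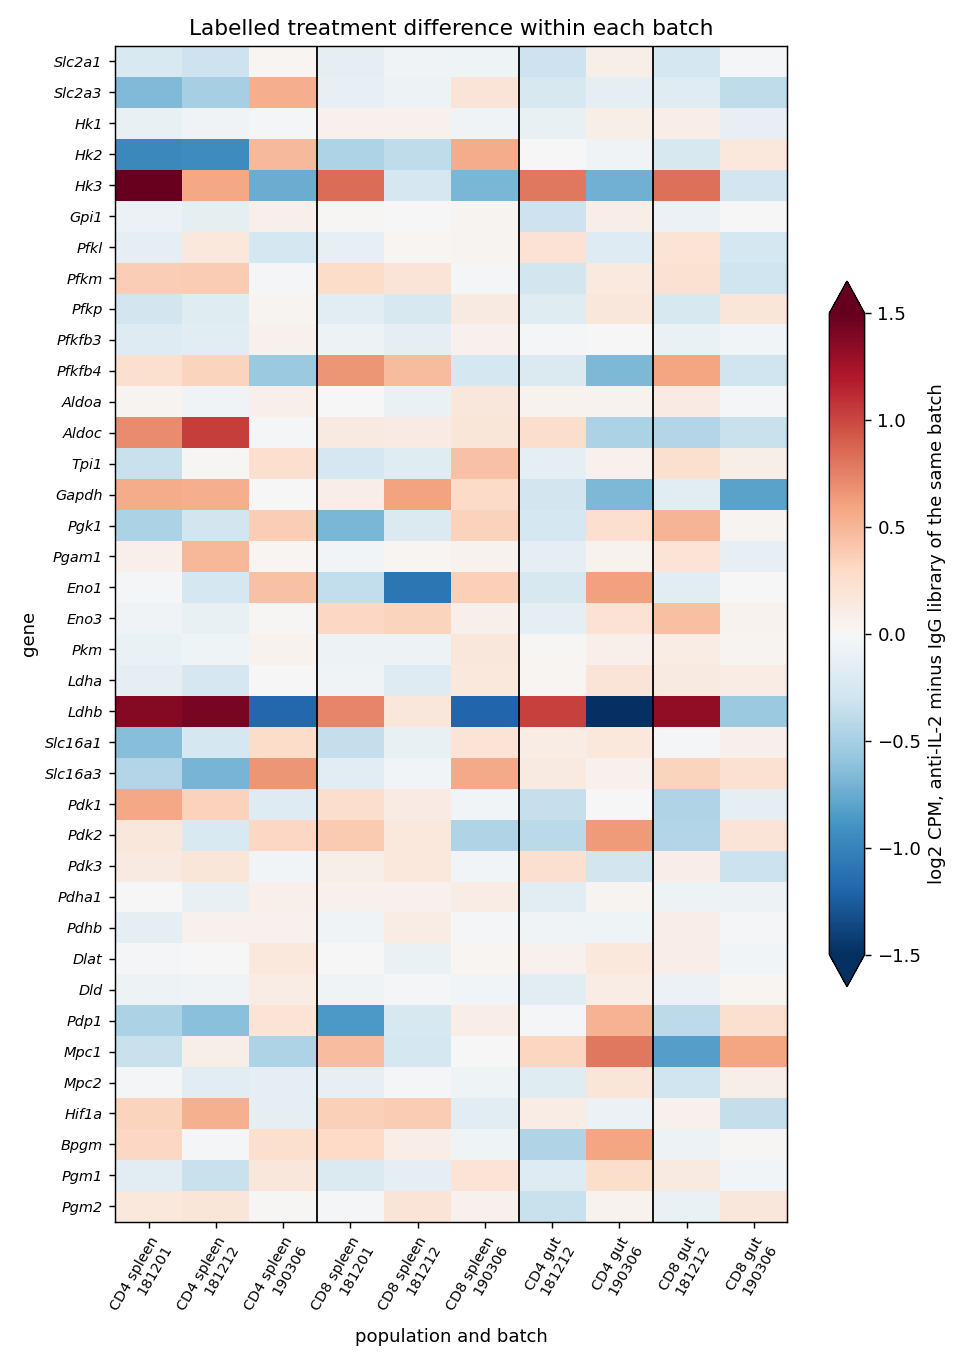
Difference in log2 CPM between the library labelled anti-IL-2 and the library labelled IgG of the same batch, for 38 genes (rows) in the 10 pairs of population and batch that hold both (columns). Red is higher and blue lower in the library labelled anti-IL-2, values past 1.5 have the end colour, and in CD4 spleen the rows of Hk2, Slc2a3, Hif1a and Ldhb change colour between batch 190306 and the other batches.

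Batch 190306 also stood apart in level, whatever the labelled treatment. In all 8 groups its library was the highest for 5 genes, Slc2a1, Hk1, Gpi1, Aldoa and Ldha, and the lowest for 4, Pdk1, Pdk3, Pdhb and Dld. Over all 12841 genes tested, 11.6% were highest and 8.93% lowest in this way, so batch 190306 stood apart among these genes about as often as among all genes. The ratio of the batch 190306 library to the mean of the other libraries of its group was 1.16 to 1.53 for Aldoa, 1.07 to 1.56 for Ldha and 0.557 to 0.929 for Pdk1. No test was made of this, since it was noticed in the levels. Comparisons of tissues and of cell types were therefore made within batch and labelled treatment, where both libraries carry the same label.

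Between tissues, gut T cells of both types had more Hk1, Gpi1, Aldoa, Pkm, Ldha and Slc16a3, the lactate exporter, than spleen T cells. Averaged over treatment, gut T cells of both types also had less Pdk1. In CD4 cells 15 of the 38 genes were higher in gut and 3 lower, and in CD8 cells 14 were higher and 5 lower. Over all 12841 genes tested, 26.6% were higher and 22.7% lower in CD4 cells, and 24.8% higher and 23% lower in CD8 cells. The share of these 38 genes that was higher (39.5% and 36.8%) thus lay above that of all genes. The share that was lower (7.89% and 13.2%) lay below it. A list of 28 further glycolysis and pyruvate genes did not show this excess of higher genes. Of these, 6 were higher and 6 lower in CD4 cells, and 6 higher and 8 lower in CD8 cells. The median over the 38 genes was 0.12 in CD4 and 0.07 in CD8 cells on the log2 scale, and 0.01 and 0.00 over all genes. The same call was made in both cell types for 14 genes, 13 higher and 1 lower, out of the 18 called in CD4 and the 19 called in CD8 cells. How often all genes had the same call in both was not counted, so this count describes these genes only.

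At the entry of the pathway, Slc2a3 was at 251 to 333 CPM in CD4 gut libraries and 139 to 220.1 CPM in CD4 spleen libraries (0.74 ± 0.10, adjusted p = 1.17e-05), with no overlap. In CD8 cells the ranges were 227 to 296 CPM in gut and 201 to 238 CPM in spleen (0.27 ± 0.10, adjusted p = 0.0301), with gut higher in 4 of 5 pairs of one batch and treatment, and the call was lost in 8 of 17 alternative fits (adjusted p up to 0.157). Slc2a1 was lower in gut in CD8 cells, where it was at 52.1 to 78.2 CPM in gut and 72.2 to 96.7 CPM in spleen (-0.35 ± 0.05, adjusted p = 1.5e-05), in each of the 5 pairs of one batch and treatment, while in CD4 cells it did not pass (0.05 ± 0.05). This was the sole gene of the 38 whose tissue difference differed between cell types (CD4 less CD8 0.40 ± 0.07, adjusted p = 0.00323, 4.65% of all genes called). It passed whichever library was left out, but 3 of the 38 genes were called without the CD4 spleen IgG library of batch 181212, and 2 were called without the CD8 gut anti-IL-2 library of batch 181201, the CD4 gut IgG library of batch 181212, the CD8 gut library labelled IgG of batch 190306, or the CD4 spleen library labelled anti-IL-2 of batch 190306. Of 28 alternative fits 2 lost the Slc2a1 call, that of 8 groups with batch and that with no replicate block (adjusted p up to 0.698). Over all genes those fits called 42 and 36, compared with 597 in the main fit. Hk1, the constitutive hexokinase, was at 356 to 464 CPM in CD4 gut and 279.9 to 333 CPM in CD4 spleen (0.38 ± 0.04, adjusted p = 6.61e-07), and it was higher in gut in all 5 pairs of each cell type (CD8 0.34 ± 0.04, adjusted p = 2.93e-06). Hk2 passed in CD4 cells by a small margin (0.32 ± 0.12, adjusted p = 0.0374) and lost that call in 11 of 17 alternative fits. This fit averages over treatment, and the sign of the Hk2 tissue difference was not the same under each. By the levels given above, CD4 gut had less Hk2 than CD4 spleen in the IgG pair of batch 181212. It had more in the anti-IL-2 pairs of batches 181201 and 181212 (gut less spleen treatment difference 0.91).

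Along the trunk, Aldoa was at 357 to 567 CPM in CD4 gut and 280.0 to 379.6 CPM in CD4 spleen (0.44 ± 0.05, adjusted p = 2.17e-06), and at 428 to 637 and 334 to 457 CPM in CD8 cells (0.46 ± 0.05, adjusted p = 1.42e-06). Pkm, which makes pyruvate, was at 551 to 733 CPM in CD4 gut and 434 to 534 CPM in CD4 spleen (0.37 ± 0.05, adjusted p = 4.15e-06; CD8 0.28 ± 0.05, adjusted p = 9.34e-05). The Aldoa ranges of gut and spleen overlapped across batches, but all 5 within-batch pairs of each cell type were higher in gut for both genes. Gpi1 (0.34 in CD4 and 0.28 in CD8 cells), Pfkp (0.16 and 0.21) and Pfkfb3 (0.34, adjusted p = 2.76e-06, and 0.18, adjusted p = 0.00139) passed in both cell types and were likewise higher in gut in all 5 pairs. Gapdh showed a larger difference, at 8.31 to 14.9 CPM in CD4 gut and 3.98 to 6.00 CPM in CD4 spleen (1.30 ± 0.17, adjusted p = 6.24e-06; CD8 1.32 ± 0.17, adjusted p = 7.49e-06), on counts that are uncertain as described above. Pfkl did not pass in either cell type (-0.02 and 0.04), nor did Pgk1, Eno1 or Eno3.

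At the end of the pathway, Ldha was at 497 to 805 CPM in CD4 gut and 387 to 522 CPM in CD4 spleen (0.38 ± 0.06, adjusted p = 8.09e-05), and at 483 to 745 and 437 to 602 CPM in CD8 cells (0.25 ± 0.06, adjusted p = 0.00374). Slc16a3 was at 11.5 to 25.1 CPM in CD4 gut and 7.02 to 15.8 CPM in CD4 spleen (0.66 ± 0.15, adjusted p = 0.00141; CD8 0.55 ± 0.15, adjusted p = 0.00517), whereas Slc16a1 did not pass in either (0.15 and 0.01). The ranges over libraries overlapped for both genes in both cell types. Within batch, Ldha was higher in gut in 5 of 5 CD4 and 4 of 5 CD8 pairs, and Slc16a3 in 4 of 5 and 5 of 5. Pdk1 was lower in CD4 gut, at 31.4 to 56.4 CPM, than in CD4 spleen, at 49.3 to 92.3 CPM. The log2 fold change was -0.65 ± 0.11 (adjusted p = 0.000129) in CD4 and -0.36 ± 0.11 (adjusted p = 0.0137) in CD8 cells. Gut was lower in 5 of 5 CD4 pairs and 4 of 5 CD8 pairs. These fits average over treatment, and the Pdk1 difference was not alike under each. In the IgG pair of batch 181212 it was -0.08 in CD4 and 0.08 in CD8 cells. In the anti-IL-2 pairs of batches 181201 and 181212 it was -0.96 and -0.78 in CD4 cells. In CD8 cells those pairs gave -0.74 and -0.50. In batch 190306 the pairs labelled IgG and anti-IL-2 gave -0.84 and -0.65 in CD4 and -0.25 and -0.35 in CD8 cells. The subunit Pdhb was slightly higher in both cell types (0.12 and 0.18), and Hif1a did not pass (0.04 ± 0.07 in CD4 and -0.03 ± 0.07 in CD8 cells), with an adjusted p of 0.647 and 0.793. Hk3 was lower in CD4 gut (-1.15 ± 0.28, adjusted p = 0.00272), and the macrophage marker sum was 24.2 to 308 CPM in CD4 spleen and 29.3 to 74.7 CPM in CD4 gut libraries, with 0 of the 10 markers at 0 throughout either.

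Markers of other gut cells were also counted in gut libraries. Beside the epithelial markers given above, the summed level of 4 fat markers reached 29.1 CPM in CD4 and 35.3 CPM in CD8 gut anti-IL-2 libraries, compared with at most 7.73 CPM in spleen, and 4 pancreas markers reached 12.7 and 18.7 CPM compared with at most 1.60 CPM. The part of these cells in the gut levels of Aldoa, Pkm or Ldha was not tested. Of the 12 proliferation genes, 1 was higher and 0 lower in gut in CD4 cells, and 0 higher and 8 lower in CD8 cells. Over all genes 26.6% were higher and 22.7% lower in CD4 cells, and 24.8% and 23% in CD8 cells. The part of cell division in the tissue differences was not tested either.

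**Figure D4:**
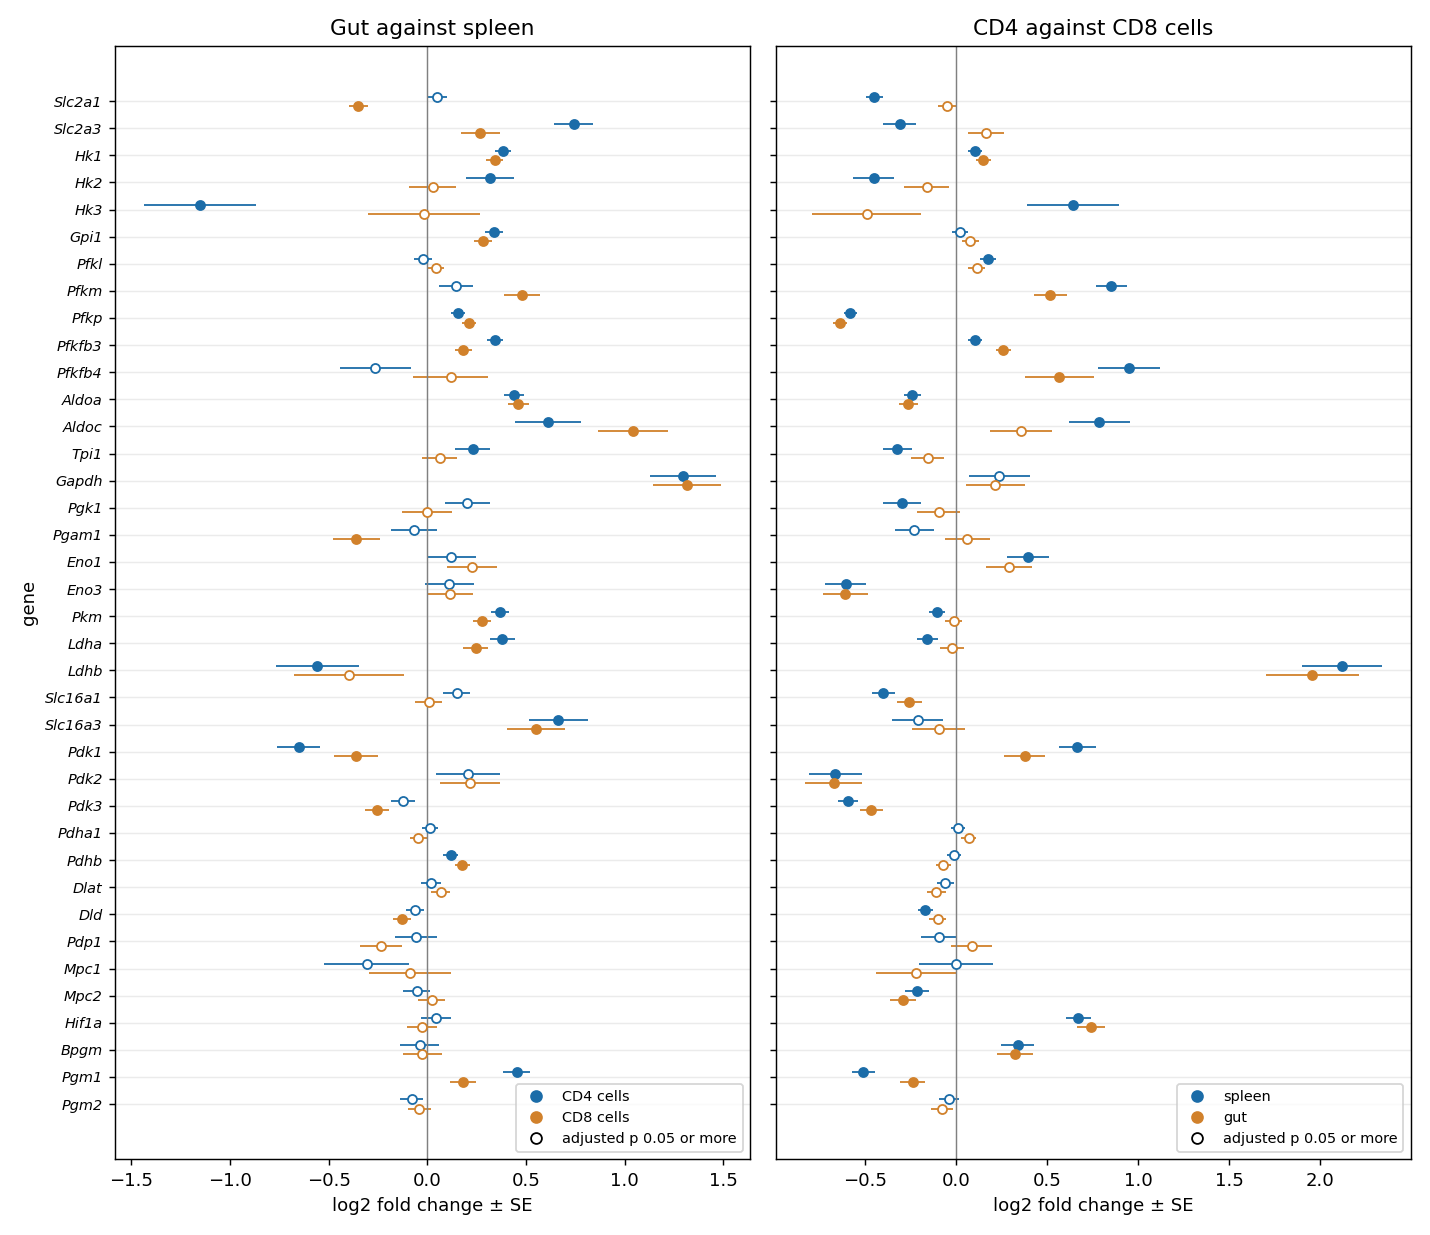
Log2 fold change with its standard error (horizontal axes) of the 38 genes between gut and spleen (left, by cell type) and between CD4 and CD8 cells (right, by tissue), with filled points for an adjusted p under 0.05. In the left panel 13 genes are filled to the right of 0 in both cell types, and in the right panel Pfkp, Pdk3 and Pdk2 lie left and Ldhb, Hif1a and Pfkm right of 0 in both tissues.

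Between cell types, the mRNA of several enzyme families was made up differently, with more Pfkm, Pdk1 and Ldhb in CD4 cells and more Pfkp, Pdk2 and Pdk3 in CD8 cells. In spleen 12 of the 38 genes were higher and 16 lower in CD4 than in CD8 cells (31.6% and 42.1%), where 28.9% of all genes were higher and 29.2% lower. In gut 8 were higher and 8 lower (21.1% each), where 22.9% and 23.1% of all genes were, so in gut the share was near the background. All 16 genes called in gut had the same call in spleen, where they made up 16 of 28. The like count over all genes was not made.

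Among phosphofructokinases, Pfkp was at 288 to 349.6 CPM in CD4 spleen and 455 to 537 CPM in CD8 spleen libraries (-0.58 ± 0.03, adjusted p = 2.39e-10), and at 331 to 399.6 and 500.0 to 648 CPM in gut (-0.64 ± 0.04, adjusted p = 4.4e-10). Pfkm showed the reverse, at 12.3 to 17.8 CPM in CD4 and 7.53 to 9.34 CPM in CD8 spleen (0.85 ± 0.08, adjusted p = 1.1e-07; gut 0.52 ± 0.09, adjusted p = 0.000134). The groups did not overlap for either gene in either tissue. Pfkfb4, which like Pfkfb3 sets the level of fructose 2,6-bisphosphate, was higher in CD4 cells (0.95 in spleen and 0.57 in gut), as was Pfkfb3 (0.10 and 0.26).

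Among the kinases of pyruvate dehydrogenase, Pdk1 was higher in CD4 cells and Pdk2 and Pdk3 were lower. Pdk1 was at 49.3 to 92.3 CPM in CD4 and 32.6 to 52.4 CPM in CD8 spleen (0.66 ± 0.10, adjusted p = 2.9e-05; gut 0.38 ± 0.11, adjusted p = 0.0131). Pdk3 was at 32.4 to 41.4 CPM in CD4 and 50.3 to 61.1 CPM in CD8 spleen, with no overlap (-0.60 ± 0.06, adjusted p = 6.25e-08; gut -0.47 ± 0.06, adjusted p = 7.98e-06). For Pdk2 the log2 fold change was -0.66 ± 0.15 in spleen and -0.68 ± 0.16 in gut. The Pdk1 order held in all 6 spleen pairs and all 5 gut pairs of one batch and treatment, and so did that of Pdk3.

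Ldhb had the largest difference, at 1.67 to 5.04 CPM in CD4 and 0.279 to 1.13 CPM in CD8 spleen (2.12 ± 0.22, adjusted p = 2.2e-07; gut 1.96 ± 0.25, adjusted p = 6.45e-06). Only 12 of the 22 libraries reached 1 CPM for Ldhb, and CD4 spleen libraries alone were enough to meet the inclusion rule. The size of this difference is therefore not independent of that rule. Hif1a was at 515 to 885 CPM in CD4 and 315 to 520.2 CPM in CD8 spleen (0.67 ± 0.07, adjusted p = 2.39e-07), and at 604 to 742 and 337 to 432 CPM in gut (0.74 ± 0.08, adjusted p = 4.55e-07). Hif1a groups overlapped in spleen by the single lowest CD4 library and did not overlap in gut. Slc2a1 was lower in CD4 than in CD8 spleen (-0.45 ± 0.05, adjusted p = 1.43e-07) and did not pass in gut (-0.05 ± 0.05). The lactate transporter Slc16a1 (-0.40 and -0.26), Aldoa (-0.24 and -0.26), the muscle enolase Eno3 (-0.61 and -0.61), the phosphoglucomutase Pgm1 (-0.51 and -0.24) and the pyruvate carrier subunit Mpc2 (-0.22 and -0.29) were lower in CD4 cells in spleen and gut, and Bpgm (0.34 and 0.32) and Hk1 (0.11 and 0.15) higher. Ldha and Pkm passed in spleen by a small margin (-0.16 ± 0.06 and -0.11 ± 0.04), and in gut neither passed (-0.02 and -0.01). Of 18 alternative fits in spleen, 16 lost the Pkm call (adjusted p up to 0.312) and 9 the Ldha call (up to 0.354). The Pfkfb3 call in spleen was lost in 8 of 18 (adjusted p up to 0.22), and that of Pfkfb4 in gut in 6 of 16.

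Proliferation genes were also lower in CD4 than in CD8 cells, 12 of 12 in spleen and 11 of 12 in gut, where 29.2% and 23.1% of all genes were lower. Their part in these differences was not tested.

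Over the 4 treatment comparisons of batches 181201 and 181212, the 2 of tissues and the 2 of cell types, 34 of the 38 genes (89.5%) were called at least once, compared with 86.6% of all 12791 genes tested in the 8. Pdk1 and Pfkp were called in 7 of the 8. The 4 never called were the pyruvate dehydrogenase subunits Pdha1 and Dlat, the phosphoglucomutase Pgm2, at 45.3 to 65.3 CPM, and the pyruvate carrier subunit Mpc1, at only 1.13 to 2.71 CPM. Of the rarely called, Pgam1, on uncertain counts, was lower in CD8 gut than in CD8 spleen (-0.36 ± 0.12, adjusted p = 0.017). The triose phosphate isomerase Tpi1 had a log2 fold change of 0.23 ± 0.09 between CD4 gut and CD4 spleen (adjusted p = 0.0386), but the call was lost in 10 of 17 alternative fits, with values from 0.09 to 0.28 and an adjusted p up to 0.546. The subunit Dld had -0.13 ± 0.04 between CD8 gut and CD8 spleen (adjusted p = 0.0234) and lost the call in 7 of 17, with an adjusted p up to 0.414.

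Other genes of the same pathways were read from lists, of which 29 further glycolysis and pyruvate genes, 12 pentose phosphate genes, 21 tricarboxylic acid cycle genes, 22 genes of the HIF-1 pathway or induced by low oxygen and 14 regulators of glucose use were tested under treatment. Counts of these lists in CD4 spleen stand beside 9.8% of all genes higher and 10.3% lower. Of the 29 further glycolysis genes, 0 were higher and 2 lower there. The transporter Slc2a8 (GLUT8) was at 39.2 and 37.2 CPM under IgG and 14.2 and 14.4 CPM under anti-IL-2 (-1.40 ± 0.09, adjusted p = 5.35e-07), and it was at 18.7 CPM in the library labelled IgG and 42.6 CPM in that labelled anti-IL-2 of batch 190306. The malic enzyme Me2 was the other (-0.34 ± 0.06, adjusted p = 0.00192). In CD8 spleen Slc2a8 was lower as well (-0.79 ± 0.10, adjusted p = 0.000177).

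Txnip, which restrains glucose uptake and is itself induced by glucose, did not pass in spleen (-0.13 in CD4 and 0.03 in CD8 cells) and was lower under anti-IL-2 in gut (-0.70 ± 0.11, adjusted p = 0.00225 in CD4; -0.78 ± 0.11, adjusted p = 0.00127 in CD8). Bsg, the chaperone of the lactate exporters, did not pass in any of the 4 populations. Pdk4, a kinase of pyruvate dehydrogenase induced by fasting, was at 0 to 0.292 CPM in spleen and 0 to 4.42 CPM in gut libraries. Of the HIF-1 pathway genes 2 were higher and 4 lower in CD4 spleen. Epas1, which encodes HIF-2alpha (-1.60 ± 0.11, adjusted p = 2.42e-06), and Ddit4, an inhibitor of mTOR (-0.46 ± 0.11, adjusted p = 0.0121), fell, while Plin2 (0.77 ± 0.13, adjusted p = 0.000885), a lipid droplet protein, and Egln3 (0.63 ± 0.18, adjusted p = 0.025), a prolyl hydroxylase that marks HIF-1alpha for breakdown, rose, as Hif1a did.

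Regulators of glucose use included 4 that rose and 1 that fell in CD4 spleen. Bcl6, a transcriptional repressor, rose (1.47 ± 0.11, adjusted p = 1.22e-06), as did Irf4 (0.58 ± 0.15, adjusted p = 0.0265), and the kinase Akt1 fell (-0.22 ± 0.05, adjusted p = 0.00882). Myc did not pass in CD4 spleen (-0.13) and rose in CD8 spleen (0.31 ± 0.08, adjusted p = 0.0181) and CD8 gut (0.69 ± 0.10, adjusted p = 0.000996). Of the 12 pentose phosphate genes 0 rose and 1 fell in CD4 spleen, the transketolase Tkt (-0.25 ± 0.06, adjusted p = 0.00507), and of the 21 tricarboxylic acid cycle genes 2 rose and 2 fell.

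Between cell types, of the tricarboxylic acid cycle genes, 17 of 21 were lower and 3 higher in CD4 than in CD8 spleen, and 14 lower and 1 higher in gut, where 29.2% and 28.9% of all genes were lower and higher in spleen and 23.1% and 22.9% in gut, with a median of -0.22 and -0.14 on the log2 scale compared with 0.01 and -0.01 over all genes. Idh3a, a subunit of isocitrate dehydrogenase, was lower (-0.57 ± 0.04, adjusted p = 6.68e-09), while Idh2 was higher (1.20 ± 0.08, adjusted p = 6.48e-10). Of the pentose phosphate genes 7 of 12 were lower and 1 higher in CD4 cells in each tissue. Between gut and spleen the lists were mixed. Of 21 tricarboxylic acid cycle genes, 7 were higher and 3 lower in CD4 cells, and 6 higher and 6 lower in CD8 cells. Of 28 further glycolysis genes, 6 were higher and 6 lower in CD4 cells, and 6 higher and 8 lower in CD8 cells. Over all genes 26.6% were higher and 22.7% lower in CD4 cells, and 24.8% and 23% in CD8 cells.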

How the data were processed

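RNA of sorted donor T cells was sequenced from a stranded mRNA kit, per the labels' protocols. TopHat2, HTSeq 0.9.1 and mm10 are named in the submitters' processing notes. The annotation, strand setting and read length are not given in the sources used here. The deposited values are whole-number counts per gene name, 14628806 to 24518362 per library, which limits precision for genes of a few CPM.

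From these, CPM were scaled by TMM, and edgeR 4.0.16 (R 4.3.3, limma 3.58.1) quasi-likelihood tests were fitted with Benjamini-Hochberg adjustment over all genes passing filterByExpr, and called at an adjusted p under 0.05. Treatment was fitted on 14 libraries of 2 batches (8 groups plus batch) and on 22 of 3 batches; tissue and cell type on 22 with a block of batch and labelled treatment. Batch was blocked because the labels name it as shared between libraries. Per-library values in log2 used a prior count of 2. Named with values were, per comparison, up to 6 members per direction with the smallest adjusted p past the threshold and 8 members always (Slc2a1, Slc2a3, Hk2, Pfkfb3, Ldha, Slc16a3, Pdk1, Hif1a), up to 4 list genes per direction, and Txnip, Pdk4, Bsg, Myc, Irf4, Mki67 and Il2ra; further members were described beside them. Scripts were tested on simulated data. DESeq2 1.42.0, other scaling, no filter, no block and left-out libraries were tried. The members and lists were chosen with earlier results of these data known, including the use of 2 batches for treatment.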

Additional observations from a re-analysis of the deposited data

Results flagged for a closer look

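Differences of differences passed edgeR's quasi-likelihood test for 8 pairs of gene and contrast. The gut to spleen difference of Slc2a1 differed between cell types (CD4 less CD8) by 0.40 on the log2 scale (adjusted p = 0.00323). Slc2a1 was lower in gut in CD8 cells, in 5 of 5 pairs, and its tissue difference did not pass in CD4 cells. The treatment difference in batches 181201 and 181212 differed between gut and spleen (gut less spleen) in CD4 cells by 0.91 for Hk2 (adjusted p = 0.000871), by -0.83 for Pdk1 (adjusted p = 0.00259) and by -0.68 for Bpgm (adjusted p = 0.0307). In CD8 cells it differed by 0.96 for Pgk1 (adjusted p = 0.0486) and by -0.72 for Pdk1 (adjusted p = 0.0159). In spleen it differed between CD4 and CD8 cells (CD4 less CD8) by -0.46 for Slc2a3 (adjusted p = 0.0317) and by -0.51 for Hk2 (adjusted p = 0.0371). The gut treatment differences rest on 1 IgG library per cell type. In the order given, these are 2.63%, 7.89%, 5.26% and 5.26% of the 38 genes. Over all genes 4.65%, 5.39%, 2.39% and 0.918% were called. As described above, the calls of Bpgm, Pgk1, Slc2a3, Hk2 between cell types and Pdk1 in CD8 cells were lost without some single libraries. That of Slc2a1 was lost in 2 of 28 alternative fits, and counts of Pgk1 are uncertain.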

How the results depend on the processing

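Over 1828 combinations of a called gene and an alternative, 1531 kept direction and call, 297 kept direction but lost the call and 0 reversed. Only called genes were followed, in fits of the same libraries or a part of them. No alternative brought batch 190306 into the treatment calls of the other batches, and several of those differences had the opposite sign in batch 190306, as described above. With DESeq2 the counts of genes called under treatment in batches 181201 and 181212 were 7 in CD4 spleen, 3 in CD8 spleen and 2 in CD4 gut. DESeq2 also gave 2 genes whose tissue difference differed between cell types, 1 whose treatment difference differed between tissues in CD8 cells and 1 between cell types in spleen. With no replicate block (batch left out), the counts were 3 in CD8 spleen, 2 in CD4 gut and 1 in CD8 gut, and 8 for gut against spleen in CD8, 18 for CD4 against CD8 in spleen and 10 in gut. The block being left out also gave 0 for the tissue difference between cell types, 0 for gut less spleen in CD8 and 0 for CD4 less CD8 in spleen. DESeq2's size factors in edgeR gave 2 for the tissue difference between cell types, 8 groups with batch gave 0, and leaving out the 4 genes that share most sequence gave 1 for gut less spleen in CD8. Leaving out 1 library at a time gave 6 to 8 calls under treatment in CD4 spleen, 2 to 3 in CD8 spleen, 1 to 2 in CD4 gut and 1 to 2 in CD8 gut, and 0 to 0 with 3 batches. It gave 4 to 7, 3 to 4, 4 to 6 and 2 to 3 for batch 190306 against the others in CD4 spleen, CD8 spleen, CD4 gut and CD8 gut. For gut against spleen it gave 14 to 18 in CD4 and 16 to 19 in CD8, for CD4 against CD8 23 to 27 in spleen and 14 to 18 in gut, and for differences of differences 1 to 3 (tissue), 2 to 4 (gut less spleen, CD4), 0 to 2 (gut less spleen, CD8) and 0 to 1 (CD4 less CD8, spleen). Counts over all genes moved too. In spleen under treatment DESeq2 called 1765 in CD4 and 1033 in CD8 cells (main fit 1281 higher and 1346 lower, and 792 and 795). With no replicate block 3163 were called for gut against spleen in CD8 cells (main fit 3189 and 2952). For CD4 against CD8 it gave 4715 in spleen and 2976 in gut (main fit 3712 and 3747, and 2935 and 2971). The cause of these changes was not tested, except that leaving out libraries gives fewer samples. The only gut IgG library of batch 181212 per cell type could not be left out.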
